A study of Mus musculus with 55 samples.

Results

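A group of 198 genes, of 9911 listed for CCNA-GFP mouse embryonic stem (ES) cells, rose sharply after mitosis and fell again within 2 h. They are called spike genes here and were chosen by their values in these data. A gene was selected when log2(TPM + 1) of its pre-mRNA was at least 0.7 higher at 60 min than at 120 min, and at least 1 higher at 60 min than in mitosis, in replicate 1 and in replicate 2 of CCNA-GFP. TPM, the unit of the values, is a level per length of transcript and relative to all transcripts of a library, so levels of different genes in a library can be set side by side. The low values of each library lie at whole multiples of 1 step, which runs from 0.018 to 0.038 TPM between libraries, so a factor per library that the sources do not name appears to have been applied, and differences between libraries depend on it. Such steps were seen in the libraries of both cell lines used here, so the tests below depend on this factor too. The CCNA-GFP values at 60 min, at 120 min and in mitosis of replicates 1 and 2 chose the genes. For that reason they are descriptions and carry no test. The tests below come from a second cell line, CTCF-AID, in which 197 of the 198 genes were listed among 10237. The exception was Snhg17, a host gene of small nucleolar RNAs.

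Both lines derive from E14Tg2a ES cells grown in serum with LIF. CCNA-GFP cells carry a cyclin A-GFP reporter of the cell cycle, and CTCF-AID cells were engineered so that the auxin IAA triggers degradation of the chromatin protein CTCF. Cells were held with the CDK1 inhibitor RO-3306 (10 µM, 4 h), then with the spindle poison nocodazole (50 ng/ml, 4 h), collected in mitosis by shake-off and released. The groups were asynchronous cells, mitotic cells and cells at 20 to 120 min after release, in CCNA-GFP (19 libraries), in CTCF-AID without IAA (18 libraries) and in CTCF-AID with 0.5 mM IAA (18 libraries). IAA was given for the last 2 h of nocodazole and kept during release, or for 4 h to asynchronous cells. At 60 and 120 min each cell group had replicates 1 and 2, and mitotic and asynchronous cells had 3 replicates. The 50 min time point was replicate 3 alone in CCNA-GFP and replicates 1 and 3 in CTCF-AID. One replicate number stands for one mitotic preparation followed in time.

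Most transcription stops in mitosis and is switched on again as cells divide and enter G1. Pre-mRNA still holds its introns and is short-lived, so that its level follows ongoing synthesis more closely than mature mRNA does. Immediate early genes, which respond to growth factors within minutes and are then shut off, are the textbook example of a transient response, and many of their products limit or end the signal that induced them. Of the 10 ES cell markers checked, 9 were listed, with summed levels of 35.7 to 147 TPM over mitotic, 60 min, 120 min and asynchronous libraries, and none was a spike gene. Of 14 markers of other cell types, 3 were listed in CCNA-GFP and 6 in CTCF-AID, with sums of at most 12.3 TPM. In CTCF-AID these sums were 0.745 to 2.26 TPM in mitosis, 4.18 to 12.3 TPM at 60 min and 1.69 to 5.91 TPM at 120 min, so they were also higher at 60 min, and their part in the results was not tested. TPM hold no read counts, so the depth behind each value is unknown. In these bulk samples, fewer cells transcribing a gene and less pre-mRNA per cell cannot be told apart.

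Median differences of the spike genes between 60 and 120 min in CCNA-GFP were 1.17 in replicate 1 and 0.85 in replicate 2 on the log2 scale, and those between 60 min and mitosis were 1.81 and 1.66. By the smaller of the 2 replicate differences between 60 and 120 min, the largest belonged to Mir20a, the precursor of a microRNA of the growth-promoting miR-17-92 cluster, with 2.40 and 2.05. After it came Cd68, a lysosomal protein known from macrophages, Polg2, the accessory subunit of the mitochondrial DNA polymerase, and Syf2, a splicing factor. At the threshold, Chchd7 entered with 0.7004 in replicate 2, after Lsm7, Timp3, Ptprcap and March9. Herpud2 missed it with 0.6989, and Ik, Klf4 and Dazap2 were also just outside, so the edge of the group separates genes with nearly equal values. Klf4 is itself a pluripotency factor, and stayed out by 0.002 on this scale.

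How many genes qualify depends strongly on the scale. With a pseudocount of 0.1 in place of 1 there were 673, which included all 198, and scaling every library to an equal total TPM left 39, all of them among the 198. Total TPM here is the sum over the listed pre-mRNAs of a library, not over all its transcripts. This total rose in CCNA-GFP replicate 1 from 14734 in mitosis to 42576 at 60 min, and was 31751 at 120 min. A measure that no scaling of libraries can change is the share of the spike genes in this total. In CCNA-GFP replicate 1 this share was 1.70% in mitosis and 2.20% by 20 min. It reached 3.77% at 40 min, stood at 3.44% at 60 min, had come down to 1.60% after 120 min, and was 1.54% in asynchronous cells. In CTCF-AID without IAA, replicate 1 went from 1.93% in mitosis through 3.93% at 40 min, 3.44% at 50 min and 2.56% at 60 min to 1.54% at 120 min. Replicate 2 of the same arm went from 1.66% through 4.12% at 40 min and 3.24% at 60 min to 1.54%. In these CTCF-AID preparations, which took no part in choosing the genes, the share was highest at 40 min and by 120 min was below that of mitosis. CCNA-GFP replicate 1 went the same way. Its values in mitosis, at 60 and at 120 min chose the genes, so its course is in part fixed. In CCNA-GFP replicate 2, where this also holds, the share was higher at 60 min (3.99%) than at 40 min (3.74%). At 120 min (1.74%) it was still above mitosis (1.58%).

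**Figure D1:**
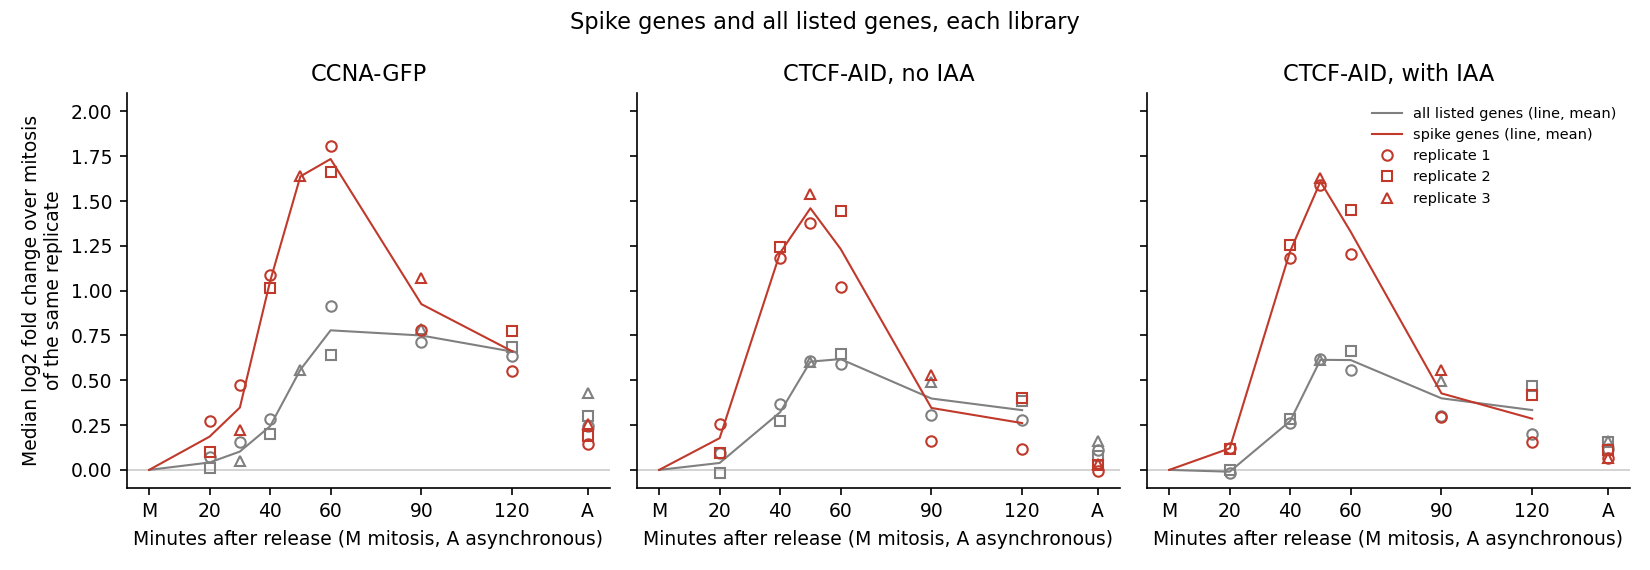
Median log2 fold change over mitosis of the same replicate (y axis) against minutes after release (x axis) for the spike genes (red) and all listed genes (grey), 1 point per library and a line through the stage means. In CTCF-AID the red points stand at 1.38 and 1.54 at 50 min without IAA, and at 0.12 and 0.40 at 120 min, where the medians of all genes are 0.28 and 0.39.

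Replicate 3 of CCNA-GFP took no part in choosing the genes and was sampled at 30, 50 and 90 min. There the spike genes were higher at 50 min than in mitosis by a median of 1.64 (quartiles 1.33 and 1.99), against 0.56 for all genes. They were higher at 50 than at 90 min in 184 of 198 cases, with a median difference of 0.56, whereas 30.1% of all listed genes were higher at 50 min and the median of all genes was -0.17. At 30 min the spike genes stood only 0.22 above mitosis, and all genes 0.05. Each of these is a single library and carries no error.

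In CTCF-AID without IAA the rise of replicate 1, the only one followed at every time point, had begun by 20 min and was steepest from 20 to 40 min. The median spike gene gained 0.26 from mitosis to 20 min, 0.92 from 20 to 40 min and 0.18 from 40 to 50 min. It then lost 0.38 from 50 to 60 min, when 190 of 197 spike genes fell and the median of all genes was 0.01. From 60 to 90 min it lost a further 0.81, and from 90 to 120 min 0.03. With IAA the median steps of replicate 1 were 0.12, 1.06, 0.40, -0.41, -0.86 and -0.15 over the same intervals. In replicate 1 the highest point thus came before 60 min, the time that chose the genes in CCNA-GFP. Replicate 2 was not sampled at 50 min, and its median over mitosis was 1.24 at 40 min and 1.44 at 60 min without IAA, and 1.26 and 1.45 with IAA. Over the stage means, 157 of 197 spike genes were highest at 50 min without IAA and 169 with IAA, against 48.1% and 51.2% of all genes, while 22 and 9 were highest at 40 min, against 2.25% and 1.38% of all genes. These means set different preparations side by side, since 40 and 60 min are replicates 1 and 2 and 50 min is replicates 1 and 3. Within replicate 1 without IAA, 50 of 197 spike genes were already lower at 50 than at 40 min, as were 11.2% of all genes. With IAA 16 of 197 were, a share near the 9.60% of all genes, so this early fall was seen in 1 arm only. In CCNA-GFP, where 50 min is replicate 3 alone and the 60 min values chose the genes, 113 of 198 were highest at 50 min and 84 at 60 min, against 21.7% and 23.0% of all genes, which is a description.

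CTCF-AID without IAA gave the repeat of the pattern in other cells. Between 60 and 120 min, 194 of 197 spike genes were higher at 60 min (limma on log2(TPM + 1) with the replicate as a block, Benjamini-Hochberg adjusted p under 0.05), and none was lower. The spread behind each SE and p was estimated over all 36 CTCF-AID libraries. It is not the spread of the 2 replicates at 60 and at 120 min alone. Of all genes, 53.1% were called higher and 7.31% lower at 60 min. The median difference of the spike genes was 0.97 (quartiles 0.80 and 1.14) and that of all genes 0.27. All 197 were higher at 60 min in both replicates, and 170 of them lay in the top 10% of all genes by this difference. Against mitosis, 196 of 197 were higher at 60 min, as were 84.8% of all genes (2.70% were lower), with medians of 1.26 and 0.63. At 40 min, 197 of 197 already stood above mitosis, where 63.3% of all genes did and 3.21% were lower, with medians of 1.25 and 0.34. Both conditions together, 60 min above 120 min and above mitosis, held for 194 spike genes and for 51.8% of all genes. The numeric thresholds of the selection were met in both CTCF-AID replicates by 90 of the 197, and by 418 of all 10237 genes (4.08%).

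**Figure D2:**
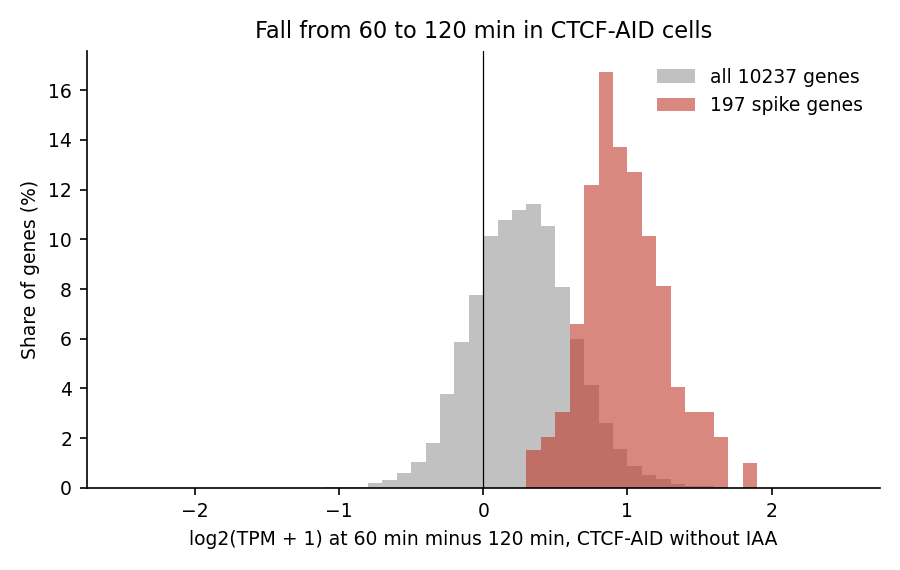
Share of genes (y axis, %) by the difference in log2(TPM + 1) between 60 and 120 min in CTCF-AID without IAA (x axis, bins of 0.1) for 197 spike genes and all 10237 listed genes. The spike genes lie between 0.35 and 1.84, with a median of 0.97, and the median of all genes is 0.27.

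Scaled to the same total TPM per library, the median of all genes between 60 and 120 min moved from 0.27 to 0.01 and that of the spike genes from 0.97 to 0.64, with 182 called higher and 0 lower, against 26.5% and 25.6% of all genes. Against mitosis the same scaling left 171 higher and 4 lower at 60 min, against 39.4% and 31.1% of all genes. At 40 min against mitosis it left 190 higher and 1 lower, against 33.3% and 36.7% of all genes. The 3 spike genes not called between 60 and 120 min were Egr1, Pmaip1 and Ptprcap, described below with their groups.

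The smallest genes of the group were a pair of microRNA precursors, and the sequences of their mature products, which pre-mRNA values do not measure, are shown to identify them. Mir20a (chromosome 14, 115044157 to 115044263, plus strand, GRCm38) gives mature strands at chr14:115044183-115044205 and chr14:115044219-115044240, and Mir1946b (chromosome 9, minus strand) gives one at chr9:21613452-21613477. Sequences are from RefSeq on GRCm38.p6, 5′ to 3′, with the seed (bases 2 to 8), which pairs with target mRNAs, in capitals. The 3 seeds differ.
mmu-miR-20a-5p: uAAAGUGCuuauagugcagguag
mmu-miR-20a-3p: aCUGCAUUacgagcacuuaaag
mmu-miR-1946b: gCCGGGCAgugguggcacaugcuuuu

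In CTCF-AID without IAA, Mir20a was listed at 0.087, 0 and 0 TPM in the 3 mitotic libraries, rose to 13.7 and 9.20 TPM at 40 min, and stood at 4.72 and 6.31 TPM at 60 min. By 120 min it was at 1.12 and 1.23 TPM, and the replicates did not overlap between 60 and 120 min. The difference was 1.57 ± 0.39 (SE, adjusted p = 0.00139, limma). Mir20a lies in a cluster made from a longer host transcript, whose reads cannot be told apart from those of the precursor. Mir1946b went from 1.11, 0.635 and 0.673 TPM in mitosis to 3.15 and 2.97 TPM at 60 min and 1.57 and 1.26 TPM at 120 min. Of the 16 microRNA and small RNA genes listed for CCNA-GFP these were the only spike genes. Of the 18 such genes listed in CTCF-AID, 5 were higher at 60 than at 120 min and 3 lower, with a median of 0.11. Of all genes, 53.1% were higher and 7.31% lower, with a median of 0.27.

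The replication-dependent histone genes Hist1h2bp and Hist1h2br, which encode H2B and are known for expression in S phase, were both spike genes, of 4 such genes listed. Of all genes listed in CCNA-GFP, 2.00% are spike genes. In CTCF-AID without IAA 3 of 5 such histone genes were higher at 60 than at 120 min and 0 lower. The shares of all genes were 53.1% and 7.31%. Hist1h2br in CTCF-AID without IAA was at 5.31, 1.00 and 2.64 TPM in mitosis, 46.1 and 41.3 TPM at 40 min, 16.6 and 17.8 TPM at 60 min, and 6.98 and 7.60 TPM at 120 min. At 50 min its replicates lay apart, at 20.0 and 42.0 TPM. The fall from 60 to 120 min was 1.13 ± 0.44 (SE, adjusted p = 0.0304, limma). Hist1h2bp went from 15.2 and 17.5 TPM to 5.32 and 4.89 TPM, a fall of 1.5 ± 0.25 (SE, adjusted p = 2.63e-05, limma). H2B genes are close copies of each other, so their values are uncertain as to which copy the reads came from. The values here are those of an unspliced isoform, and the models of Hist1h2bp and Hist1h2br have up to 2 and 3 exons. The study instead followed histone genes as mRNA, and reported them far higher in asynchronous cells than after release. These 2 spike genes therefore do not stand for histone genes in general. Slbp, which binds the hairpin at the end of histone mRNAs, was also a spike gene, with 9.80 TPM at 60 min and a difference of 1.11.

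Immediate early and growth factor response genes made up 10 of the spike genes, 17.2% of the 58 of this list that were listed in CCNA-GFP, where spike genes are 2.00% of all genes. They were Egr1, Klf10, Snai1 and Irf1, which encode transcription factors, Zfp36l1, which destabilises mRNA, Tob1, an antiproliferative protein, the stress sensors Gadd45b and Gadd45g, and the cell cycle coregulators Sertad1 and Sertad3. Over the whole list in CTCF-AID without IAA, 41 of 60 genes were higher at 60 than at 120 min and 2 were lower, with a median of 0.62, where 53.1% of all genes were higher and 7.31% lower, with a median of 0.27.

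Gadd45g was at 0.587, 0.317 and 0.362 TPM in mitosis in CTCF-AID without IAA. It reached 4.12 and 6.80 TPM at 40 min, stood at 3.33 and 6.48 TPM at 60 min and was back at 0.662 and 0.922 TPM at 120 min. Both 60 min values were above every mitotic, 120 min and asynchronous value, and the fall was 1.67 ± 0.25 (SE, adjusted p = 9.4e-06, limma). Gadd45b behaved alike in direction, with 3.67 and 9.06 TPM at 60 min and 1.16 and 3.24 TPM at 120 min. The 60 min value of replicate 1 was close to the 120 min value of replicate 2. The fall within replicates was 1.18 ± 0.24 (SE, adjusted p = 0.000201, limma).

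Tob1 was still high 2 h after release. It rose from 3.24, 2.61 and 3.16 TPM in mitosis to 13.1 and 19 TPM at 60 min, and at 120 min was still at 9.10 and 9.06 TPM, against 2.88, 2.09 and 2.34 TPM in asynchronous cells. Its difference between 120 min and asynchronous cells, 1.59, was the highest of the spike genes. Egr1 was the opposite case. In asynchronous CTCF-AID cells it was at 9.74, 12.2 and 10.3 TPM, and after release at 3.49 and 5.74 TPM at 40 min, 1.30 and 4.97 TPM at 60 min, and 0.935 and 2.66 TPM at 120 min. Its difference between 60 and 120 min was 0.48 with an adjusted p of 0.156 (limma), and the replicates overlapped. Egr1 was the only spike gene called lower at 60 min than in asynchronous cells, at -1.57. Klf10 went from 4.59 and 6.01 TPM at 60 min to 1.69 and 2.01 TPM at 120 min, and Irf1 from 3.53 and 8.08 TPM to 0.913 and 1.98 TPM.

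**Figure D3:**
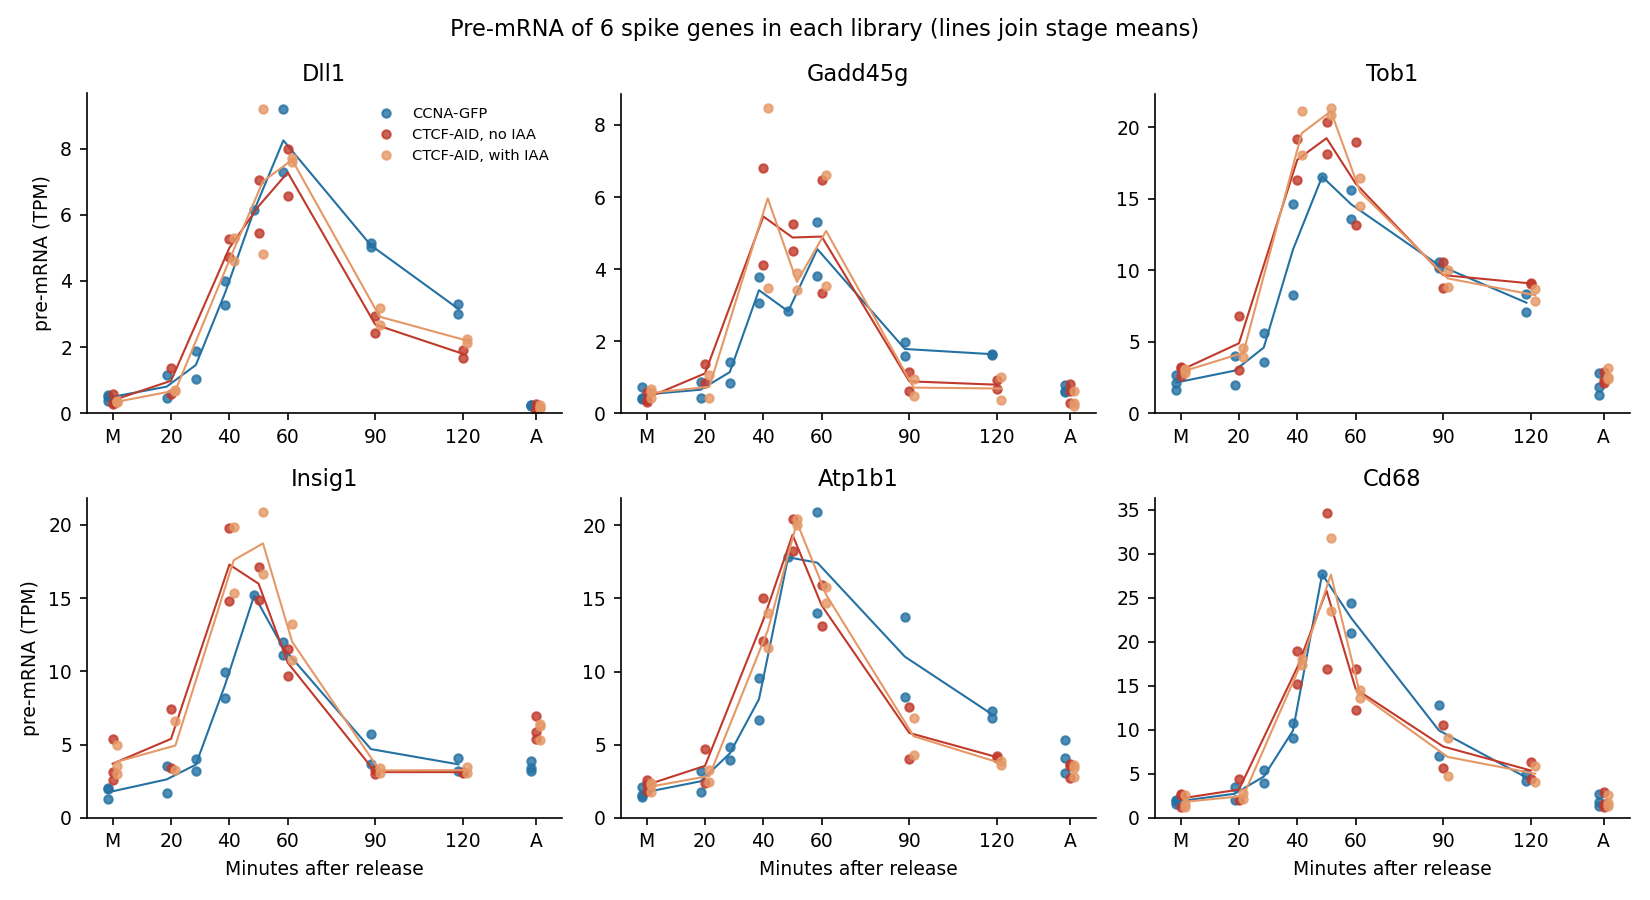
Pre-mRNA level in TPM (y axis, from 0) of Dll1, Gadd45g, Tob1, Insig1, Atp1b1 and Cd68 in every library, by minutes after release (x axis, M mitosis, A asynchronous), with lines through stage means for CCNA-GFP, CTCF-AID without IAA and CTCF-AID with IAA. Each gene is low in mitosis and high between 40 and 60 min in all 3 cell groups, and Tob1 keeps about 9 TPM at 120 min in CTCF-AID without IAA.

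Of 39 stress and p53 response genes listed in CCNA-GFP, 3 (7.69%) were spike genes, beside 2.00% of all genes. Over the whole list in CTCF-AID without IAA, 20 of 39 were higher at 60 than at 120 min and 2 lower, with a median of 0.36, so its share was near that of all genes. Ddit3, the transcription factor CHOP of the unfolded protein response, went from 2.50, 1.95 and 1.79 TPM in mitosis to 9.0 and 13.0 TPM at 60 min and 3.19 and 4.11 TPM at 120 min in CTCF-AID without IAA. Its fall was 1.35 ± 0.17 (SE, adjusted p = 8.24e-07, limma). Ddit3 overlaps Mars on the other strand, and the source does not state whether counting used strand. Ccng2, an atypical cyclin linked to cell cycle arrest, fell from 1.48 and 2.24 TPM to 0.525 and 0.587 TPM. Pmaip1, which encodes the death-promoting protein NOXA, had its highest values at 40 min, 8.62 and 8.20 TPM, and was at 4.05 and 4.85 TPM at 60 min and 3.06 and 3.49 TPM at 120 min. Its difference of 0.35 was the lowest of the spike genes and was not called (adjusted p = 0.0733, limma).

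Several groups below were recognised only once the spike genes were known, and their counts are descriptions. Their numbers of spike genes stand beside 2.00% of all genes listed in CCNA-GFP. The whole lists are counted between 60 and 120 min in CTCF-AID without IAA, beside 53.1% higher and 7.31% lower over all genes. The sterol and fatty acid synthesis genes held 6 of 35, and 33 of 35 were higher at 60 min and 0 lower. Insig1, which holds back the SREBP factors when sterols are plentiful, went from 5.35, 2.56 and 3.16 TPM in mitosis to 19.8 and 14.8 TPM at 40 min, 9.65 and 11.5 TPM at 60 min and 3.08 and 3.16 TPM at 120 min. These values are from CTCF-AID without IAA, where at 120 min it lay below each asynchronous value (6.97, 5.87 and 5.38 TPM), with a difference of -0.81. In CCNA-GFP it was at 3.23 and 4.07 TPM at 120 min and at 3.22, 3.85 and 3.43 TPM in asynchronous cells, so the groups overlapped. Scd2, a fatty acid desaturase, and Cyp51, a demethylase of sterol synthesis, were also called lower at 120 min than in asynchronous CTCF-AID cells, with differences of -0.92 and -0.58. Idi1, Msmo1 and Acly, further enzymes of these pathways, fell from 60 to 120 min by 1.06, 1.06 and 1.31, and were not called different from asynchronous cells at 120 min.

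Of 7 listed genes for the sodium pump and calmodulin, 5 were spike genes, and 8 of 8 in CTCF-AID were higher at 60 min. Atp1b1, a beta subunit of the sodium pump, went from 2.59, 1.83 and 2.33 TPM in mitosis to 13.1 and 15.9 TPM at 60 min and 4.08 and 4.22 TPM at 120 min in CTCF-AID without IAA, with no overlap between the times. The fall was 1.58 ± 0.19 (SE, adjusted p = 5.44e-07, limma). Atp1b2, another beta subunit, fell from 3.31 and 5.55 TPM to 1.55 and 2.38 TPM, and Calm2, which encodes the calcium sensor calmodulin, fell by 1.03.

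In the Notch and Wnt pathways 4 of 30 listed genes were spike genes, and of 31 in CTCF-AID without IAA 17 were higher at 60 than at 120 min and 3 lower, near the shares of all genes, with a median of 0.43. Dll1, a Notch ligand, was nearly silent in asynchronous cells, at 0.279, 0.109 and 0.113 TPM, and was at 0.587, 0.268 and 0.311 TPM in mitosis. It reached 6.57 and 7.99 TPM at 60 min and fell to 1.92 and 1.68 TPM at 120 min, a difference of 1.56 ± 0.15 (SE, adjusted p = 7.63e-08, limma). Its difference between 60 min and asynchronous cells, 2.78, was the highest of the spike genes, and it was listed through its post-mitotic levels. Jag1, another Notch ligand, fell from 3.94 and 5.58 TPM to 1.21 and 1.48 TPM. Axin2 and Apcdd1, which damp Wnt signalling, fell by 1.11 and 0.48. Axin2 differed between replicates throughout, at 2.11 and 7.28 TPM at 60 min and 0.826, 2.81 and 1.16 TPM in mitosis.

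Genes that act in mitosis itself held 11 of 48, and 40 of 48 were higher at 60 min and 0 lower. Among them were Kif20a, a motor protein of cytokinesis, Ube2c, which works with the anaphase-promoting complex, Cks2, a partner of cyclin-dependent kinases, and Kpna2, a nuclear import receptor. Cks2 was already at 13.0, 10.0 and 13.4 TPM in mitosis, was at 22.9 and 20.1 TPM at 40 min and 13.2 and 17.1 TPM at 60 min, and fell to 6.94 and 5.67 TPM at 120 min. In CTCF-AID without IAA its 120 min values were below all mitotic and asynchronous values, whereas in CCNA-GFP they were 9.47 and 10.0 TPM and lay among the mitotic and asynchronous values. Kpna2 was also below its asynchronous values, with 10.5 and 8.86 TPM at 120 min against 14.7, 12.3 and 19.1 TPM in asynchronous cells.

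Genes of Polycomb and histone deacetylase complexes held 6 of 40, and 30 of 39 were higher at 60 min and 1 lower. Cbx8, a chromodomain subunit of Polycomb complex 1, was at 0.0435, 0 and 0.129 TPM in mitosis and at 0.0372, 0.13 and 0.0566 TPM in asynchronous cells. It stood at 1.51 and 2.97 TPM at 60 min and 0.365 and 0.643 TPM at 120 min. Its mitotic and asynchronous levels were below those at 60 and 120 min, which is in part fixed by its being listed through samples after release. Bmi1, another subunit of that complex, went from 0.13, 0.122 and 0.259 TPM in mitosis to 2.52 and 3.73 TPM and back to 0.844 and 1.23 TPM. Bmi1 starts close behind another active gene on the same strand, as given below. Targets and regulators around the FOXO factors held 8 of 31, and 29 of 32 were higher at 60 min and 0 lower. The spike genes were, among others, Foxo4, which fell by 1.21, Pdcd4, an inhibitor of translation, by 0.78, and Mxd1, an antagonist of Myc, by 0.95.

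Other lists are given by their counts, beside 2.00% of all genes. There were 0 of 33 pluripotency genes, of which 19 of 35 listed in CTCF-AID were higher at 60 than at 120 min and 0 lower, with a median of 0.45, against 53.1%, 7.31% and 0.27 for all genes. There were 0 of 50 ribosome biogenesis genes, 1 of 224 ribosome and translation genes (Mrpl2), 1 of 328 genes with zinc finger symbols (Zfp36l1) and 1 of 54 G1/S genes (Mcm4, a subunit of the replicative helicase). Lists of ribosome and translation, zinc finger, transcription and splicing, and solute carrier genes were taken by the first letters of the symbol. They leave out genes with other names, such as the spike genes Peg3, which encodes a zinc finger protein, and Syf2, a splicing factor. Transcription and splicing genes held 4 of 136 (Gtf2f1, Taf13, Srsf3 and Srsf7), solute carriers 6 of 179 and lysosomal genes 3 of 27 (Cd68, Gla and Npc2). In CTCF-AID without IAA, genes higher and lower at 60 than at 120 min were 34 and 0 of 50 for ribosome biogenesis, 91 and 9 of 223 for ribosome and translation, and 156 and 29 of 339 for zinc fingers. They were 38 and 1 of 52 for G1/S, 100 and 4 of 138 for transcription and splicing, 108 and 17 of 186 for solute carriers and 18 and 1 of 28 for lysosomal genes. Gtf2f1 and Taf13, of the general transcription machinery, fell by 1.15 and 0.75. The splicing factors Srsf3 and Srsf7 had among the highest levels of the group, 21.2 and 23.3 TPM at 60 min on average without IAA. They were above mitosis there by 0.61 and 0.65, but below it by 0.32 and 0.29 when libraries were scaled to the same total TPM.

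Among the highest differences in CTCF-AID without IAA were Dnajb14, a co-chaperone of the endoplasmic reticulum, Utp14b, a ribosome assembly factor known from germ cells, Pkn3, a protein kinase, Rnf19b, a ubiquitin ligase, and Peg3, an imprinted gene for a zinc finger protein. Dnajb14 went from 0.544, 0.391 and 0.569 TPM in mitosis to 3.46 and 5.48 TPM at 60 min and 0.456 and 0.559 TPM at 120 min, a fall of 1.84 ± 0.16 (SE, adjusted p = 1.76e-08, limma). Utp14b fell from 5.20 and 6.65 TPM to 0.913 and 1.03 TPM, below its asynchronous values of 2.03, 3.61 and 2.06 TPM. Utp14b lies inside Acsl3 on the same strand, so that reads of the surrounding gene cannot be separated by position. Peg3 fell from 6.79 and 8.60 TPM to 1.55 and 2.35 TPM. Among the genes named for their fall in CCNA-GFP, Oat, of ornithine metabolism, fell by 1.23 in CTCF-AID without IAA, Glul, which makes glutamine, by 1.02, Mpc2, of mitochondrial pyruvate import, by 1.23, and Ech1, of fatty acid oxidation, by 0.87. The angiogenic factor Vegfa fell by 0.78. The lowest differences, after Pmaip1, were those of Ptprcap (0.37, adjusted p = 0.0868, limma), Fam83d (0.40), B4galt2 (0.44) and Apcdd1 (0.48). Ptprcap overlaps Coro1b on the same strand.

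Cd68, known from macrophages, Gzmm and Lag3, known from lymphocytes, and Lat, known from T cells, were also spike genes, and are set together here after their values were seen. Cd68 went from 2.61, 1.27 and 2.72 TPM in mitosis to 15.2 and 19 TPM at 40 min, 17.0 and 34.7 TPM at 50 min, 12.3 and 17.0 TPM at 60 min and 4.45 and 6.32 TPM at 120 min, with 1.54, 1.28 and 2.92 TPM in asynchronous cells. The fall from 60 to 120 min was 1.29 ± 0.23 (SE, adjusted p = 6.16e-05, limma), and at 120 min Cd68 was still 1.37 above asynchronous cells. Gzmm went from 9.24 and 10.3 TPM at 60 min to 3.06 and 3.97 TPM at 120 min, Lat from 2.88 and 4.38 TPM to 1.00 and 1.09 TPM, and Lag3 from 0.72 and 1.05 TPM to 0.16 and 0.252 TPM.

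Several of these genes begin shortly behind the end of another active gene on the same strand. Cd68 (chromosome 11, 69664213 to 69666153, minus strand, GRCm38) starts 782 bp behind Eif4a1, Gzmm 621 bp behind Cdc34, Lat 489 bp behind Spns1, Polg2 817 bp behind Ddx5 and Dnajb14 752 bp behind H2afz. At 60 min in CTCF-AID without IAA, Eif4a1, a translation factor, was at 39.3 TPM on average and Cd68 at 14.6 TPM, while Ddx5, an RNA helicase, was at 31.3 TPM and Polg2 at 10.3 TPM. From 60 to 120 min Eif4a1 fell by 0.71 and Cd68 by 1.29, and Ddx5 fell by 0.58 and Polg2 by 1.61. Bmi1 and B4galt2, named above, start 786 bp behind Commd3 and 838 bp behind Atp6v0b. At 60 min Commd3 was at 3.68 TPM and Bmi1 at 3.12 TPM, and Atp6v0b was at 12.98 TPM and B4galt2 at 2.06 TPM. B4galt2 also overlaps Ccdc24 on the same strand. Among the spike genes listed for both lines, 15 (7.61%) had a same-strand protein-coding gene ending within 1000 bp upstream, against 3.95% of all genes. Where that neighbour was itself listed, it had the higher level at 60 min in 12 of 14 cases, and in 58.2% of such pairs over all genes. Whether transcription running on from the upstream gene entered these values was not tested. At a distance of 5000 bp, 156 of 197 (79.2%) had no such neighbour, Dll1, Tob1, Gadd45g, Insig1 and Atp1b1 among them, against 84.7% of all genes.

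The spike genes were shorter than most. The median length of the gene model was 13.4 kb, against 22.6 kb for all listed genes, and 40.9% were under 10 kb, against 25.1%. Only 14 genes (7.07%) were over 50 kb, against 25% of all, and the longest was Jak1, a cytokine receptor kinase, with 112916 bp. Over all genes the difference between 60 and 120 min in CTCF-AID without IAA had medians of 0.31 to 0.34 in the classes under 50 kb and of 0.10 at 50 kb and over. Within the spike genes the medians were 0.90 under 5 kb and 1.04 at 50 kb and over.

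**Figure D4:**
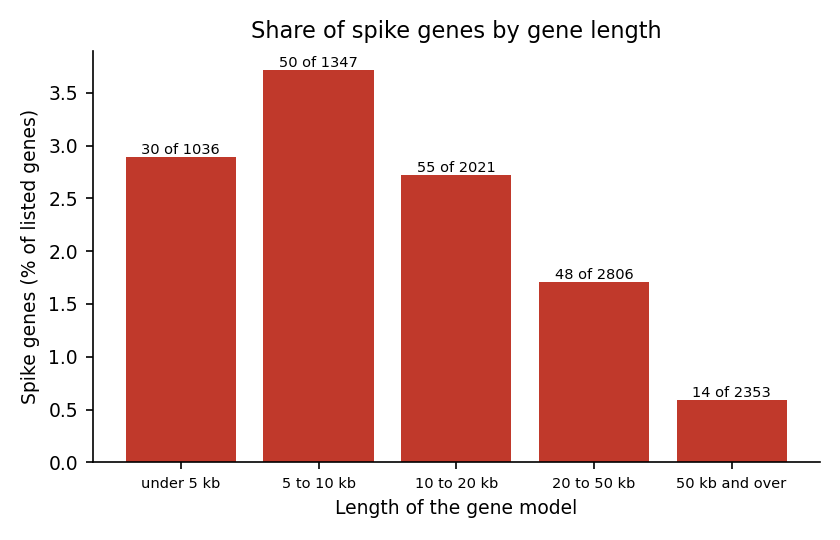
Share of spike genes among the listed genes (y axis, %) by length of the gene model (x axis), with the number of spike genes and of all genes in both tables written on each bar. The share is highest at 5 to 10 kb (50 of 1347 genes) and lowest at 50 kb and over (14 of 2353 genes).

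Promoters were read for 161 spike genes and 7949 listed genes from RefSeq on GRCm38.p6, from 250 bases before to 50 after the start, and searched on both strands for 15 short motifs. The CCAAT box (CCAAT), bound by NF-Y, was found in 51.6% of spike gene promoters and 40.1% of all. The GC box (GGGCGG) was in 75.2% and 68.0%, the E-box (CACGTG) in 16.1% and 11.1%, the AP-1 site (TGANTCA) in 7.45% and 4.01%, the TATA box (TATAAA) in 8.70% and 6.22%, the CRE (TGACGTCA) in 4.97% and 3.69%, and the core of the CTCF motif in 5.59% and 2.88%. The ETS site (CCGGAAG) was rarer, in 16.1% and 20.6%, as were a short CRE variant (TGACGCA), in 0.621% and 4.25%, and the NRF1 core, in 1.24% and 2.35%. The CHR (TTTGAA) was in 11.2% and 11.3%, the FOXO site (GTAAACA) in 3.11% and 2.33%, and the YY1 site (AAGATGGCG) in 4.97% and 3.86%. A heat shock unit and a sterol element were in no spike gene promoter, and in 0.428% and 0.0377% of all. The motifs with letters given here do not contain one another, though they may overlap in a promoter. These matches are descriptions of letters in a window, without a test.

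The promoters of 5 spike genes with large and repeated changes are shown, to let the start regions of genes that move together be compared. They lie at chr11:69666121-69666420 (Cd68, minus strand), chr13:51846425-51846724 (Gadd45g, plus strand), chr5:28071162-28071461 (Insig1, plus strand), chr17:15376883-15377182 (Dll1, minus strand) and chr7:6730370-6730669 (Peg3, minus strand), on GRCm38.p6. Capitals mark the CCAAT box and the AP-1 site in Cd68, the CCAAT and TATA boxes in Gadd45g, the CCAAT and GC boxes in Insig1, the AP-1 site in Dll1, and the CRE and the CCAAT box in Peg3, on either strand. Other motifs searched were present and are left unmarked. They are a GC box and the CTCF core in Cd68, an E-box in Gadd45g and in Insig1, and a CHR in Dll1.
Cd68: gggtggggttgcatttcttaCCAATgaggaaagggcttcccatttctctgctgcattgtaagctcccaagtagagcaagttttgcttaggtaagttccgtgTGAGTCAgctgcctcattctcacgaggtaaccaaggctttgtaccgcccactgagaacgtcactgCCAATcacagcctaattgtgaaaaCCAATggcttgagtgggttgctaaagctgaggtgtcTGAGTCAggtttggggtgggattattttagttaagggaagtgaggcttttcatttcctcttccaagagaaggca
Gadd45g: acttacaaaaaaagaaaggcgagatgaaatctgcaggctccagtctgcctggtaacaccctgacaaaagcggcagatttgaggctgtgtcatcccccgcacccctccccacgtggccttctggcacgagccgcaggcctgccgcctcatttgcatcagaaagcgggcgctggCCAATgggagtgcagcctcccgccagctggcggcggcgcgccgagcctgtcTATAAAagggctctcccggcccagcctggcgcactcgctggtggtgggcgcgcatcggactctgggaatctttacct
Insig1: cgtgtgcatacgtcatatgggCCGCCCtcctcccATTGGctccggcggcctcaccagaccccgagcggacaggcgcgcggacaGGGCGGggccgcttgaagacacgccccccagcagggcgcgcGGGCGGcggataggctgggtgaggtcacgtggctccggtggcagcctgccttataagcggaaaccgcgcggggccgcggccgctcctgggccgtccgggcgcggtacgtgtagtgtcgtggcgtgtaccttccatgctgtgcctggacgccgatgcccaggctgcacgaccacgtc
Dll1: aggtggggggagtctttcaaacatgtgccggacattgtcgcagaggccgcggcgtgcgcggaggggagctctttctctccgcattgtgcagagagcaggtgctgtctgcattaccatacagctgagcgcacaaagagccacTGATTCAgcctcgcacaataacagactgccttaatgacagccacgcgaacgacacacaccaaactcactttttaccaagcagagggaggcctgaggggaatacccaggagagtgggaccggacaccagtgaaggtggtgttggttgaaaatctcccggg
Peg3: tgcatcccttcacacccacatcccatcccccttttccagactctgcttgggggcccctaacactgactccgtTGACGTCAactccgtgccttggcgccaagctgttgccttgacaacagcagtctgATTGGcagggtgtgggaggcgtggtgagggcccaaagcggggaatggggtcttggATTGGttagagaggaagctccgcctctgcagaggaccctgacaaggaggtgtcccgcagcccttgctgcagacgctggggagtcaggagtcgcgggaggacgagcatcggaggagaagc

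In Cd68 the window between Eif4a1 and the gene held 3 CCAAT boxes and a pair of AP-1 sites, and in Gadd45g the TATA box began 27 bases before the start and the CCAAT box 78 bases before it.

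At 60 min in CTCF-AID without IAA, 196 of 197 were above asynchronous cells, as were 75.2% of all genes, and 1 was below, as were 7.06% of all genes. With equal totals there were 164 above and 2 below, against 37.5% and 32.9% of all genes. The tables list genes that exceed 0.5 TPM either in asynchronous cells or at 2 or more samples after release, so a gene that is low in asynchronous cells entered through the stages where it is high. In asynchronous CTCF-AID cells without IAA, 41 spike genes (20.8%, against 13.2% of all genes) had a mean of at most 0.5 TPM, Dll1 and Cbx8 among them, and the counts above asynchronous cells or above mitosis are no support where they rest on genes listed in this way. At 120 min 87 were above and 11 below, against 51.0% and 7.25% of all genes (limma with the replicate as a block). The medians at 120 min were 0.26 for the spike genes and 0.23 for all genes, so that the middle of the spike genes was close to that of all genes. In CCNA-GFP, whose values chose the genes, the median spike gene at 120 min stood 0.55 and 0.77 above mitosis in replicates 1 and 2, and in asynchronous cells 0.14 and 0.19, while the medians of all genes were 0.63 and 0.69 at 120 min and 0.24 and 0.30 in asynchronous cells. The 11 lower genes were Egr1, Utp14b, Scd2, Insig1, Cyp51, Irf1, Kpna2, Foxo4, Cks2, Cenpl and Snurf, with differences from -2.05 to -0.29. The highest were Tob1 with 1.59, 1700001P01Rik with 1.5, Cd68 with 1.37, Gzmm with 1.30 and Dll1 with 1.22. These counts depended on the fit: without replicate 2 there were 53 above (26.9%, against 27.3% of all genes), and without the replicate block 38 (19.3%, against 23.9%). With libraries scaled to the same total TPM there were 47 above and 43 below (23.9% and 21.8%, against 26.9% and 27.7% of all genes).

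The spike was also there in cells given IAA to remove CTCF. With IAA, 192 of 197 spike genes were higher at 60 than at 120 min, as were 50.8% of all genes (7.61% were lower), with medians of 1.01 and 0.25, and 195 were higher at 60 min than in mitosis, as were 82.2% of all genes (4.04% were lower). With equal totals, 185 were higher and 0 lower at 60 than at 120 min, against 27.2% and 26.6% of all genes, and 176 were higher and 2 lower at 60 min than in mitosis, against 40.7% and 33.2%. As deposited, both held for 192 genes, against 49.1% of all, and these 192 were all among the 194 without IAA. Dll1 with IAA was at 7.60 and 7.71 TPM at 60 min and 2.25 and 2.14 TPM at 120 min, against 6.57 and 7.99 TPM and 1.92 and 1.68 TPM without it.

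At 60 min no spike gene passed the test between the arms (limma without a block, adjusted p under 0.1 and an absolute difference over 0.2), and none had an unadjusted p under 0.05, as 1.78% of all genes did. Of all genes, 0.0586% were higher and 0.166% lower with IAA. With the replicate as a block, 5 spike genes (2.54%, against 3.6% of all genes) had an unadjusted p under 0.05 and again none passed, while 0.176% of all genes were higher and 0.830% lower. The differences ran from -0.40 to 0.35 with a median of 0.05, which was 0.00095 without replicate 1 and 0.115 without replicate 2. In the fit without the block, the 95% interval of 192 of 197 lay within 1 on either side of 0, that is within a change of TPM + 1 by a factor of 2. The smallest p of that fit belonged to Sertad1, with 2.14 and 3.29 TPM without IAA and 2.88 and 4.33 TPM with it, a difference of 0.31 (95% interval -0.0012 to 0.62). These intervals do not use the pairing of replicates between the arms.

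The difference between 60 and 120 min was also compared between the arms as an interaction. No spike gene and 0% of all genes passed (limma with the replicate as a block), and 3 spike genes (1.52%, against 1.02% of all genes) had an unadjusted p under 0.05, a share near that of all genes. Without the block there were 0. Without replicate 1 there were more, as over all genes, but 60 and 120 min then rest on 1 library per arm. The 3 genes, given as values only, were Idh1, Mrfap1 and Cbx8. Mrfap1 fell from 3.73 and 3.65 TPM to 1.30 and 1.59 TPM without IAA, and from 2.34 and 3.08 TPM to 2.14 and 2.41 TPM with it, a difference of -0.77 between the falls (95% interval -1.47 to -0.07). Cbx8 fell by 1.07 without and 1.64 with IAA, and Idh1 by 0.89 and 1.31. Over the 197 genes the interaction had a median of 0.06, which was -0.03 without replicate 1 and 0.18 without replicate 2, so its sign rested on which replicate was used. Its 95% interval lay within 1 of 0 in 190.

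**Figure D5:**
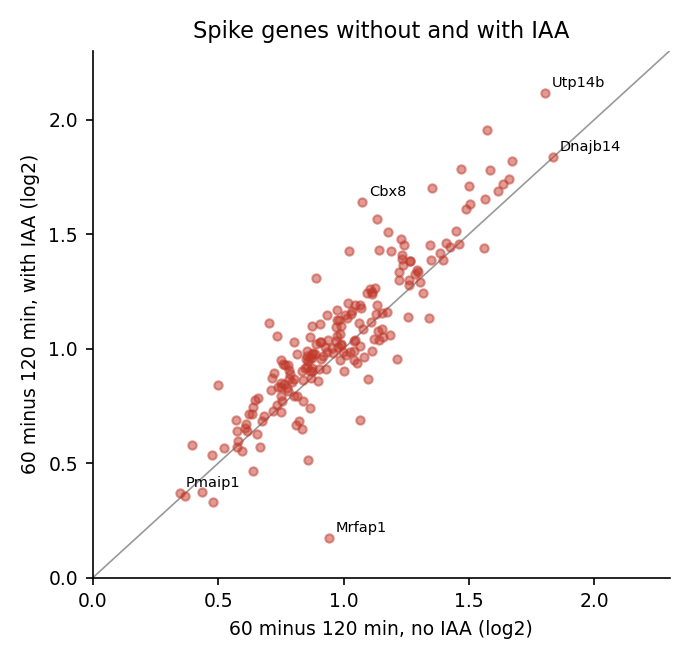
Difference in log2(TPM + 1) between 60 and 120 min of each of 197 spike genes in CTCF-AID without IAA (x axis) and with IAA (y axis), with the line of equal values. The points lie along the line, Dnajb14 at 1.84 on both axes, and Mrfap1 is the farthest below it, at 0.94 without and 0.17 with IAA.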

How the data were processed

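The series holds 55 RNA-seq libraries of ES cells. The authors made them stranded, paired-end and depleted of ribosomal RNA. They mapped reads with STAR to mm10 and estimated abundances with RSEM, using Gencode vM12 extended by 1 unspliced isoform per gene. What the authors deposited is the TPM of that unspliced isoform, called pre-mRNA here (tool versions are not given in the sources used here). Low values (under 40 steps) lay within 0.1 of a step of whole multiples of a step per library, so a factor per library, named in no source, appears to have been applied to rounded TPM. The authors kept genes above 0.5 TPM in asynchronous or at least 2 post-mitotic samples. The headers of the asynchronous CTCF-AID columns are garbled and were read with the column names of a supplementary table of the study.

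Stages were compared with limma 3.58.1 in R 4.3.3 (lmFit, eBayes with a trend) on log2(TPM + 1), with the replicate as a block. Arms at 60 min were compared without it, as the study names no block for that comparison. Each main fit used all 36 CTCF-AID libraries, with 1 mean per stage and arm. SE and p thus rest on a spread shared over stages and arms, with the libraries of 1 preparation counted as separate. The pseudocount of 1 understates changes of low genes. p-values were adjusted over all 10237 genes by the Benjamini-Hochberg method and called at 0.05, or for IAA at 0.1 with a difference over 0.2. Replicate numbers pair the libraries because the study followed one preparation in time: deviations of same-numbered libraries from stage means correlated above 0.1 in 197 of 214 pairs in CTCF-AID. Replicates were independent experiments per the study's methods, and their Spearman's rho was 0.918 to 0.984.

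The spike genes and the gene lists were chosen with earlier results of these data known, and 6 lists (sterol, mitosis, FOXO, Notch and Wnt, sodium pump and calmodulin, Polycomb) after the spike genes were seen. Genes were named by rule: the 20 largest falls in CCNA-GFP, every spike gene on a list fixed earlier, the 10 largest and 5 lowest falls in CTCF-AID, the 5 on each side of the threshold (1 of which is not reported here, nor are a few other genes), and the 5 with the lowest p for IAA and for the interaction, plus Cd68 and Hist1h2br. Of these, the ones described in most detail, and the genes outside the rule, such as Slbp, Cks2, Bmi1, Gzmm, Lat, Lag3 and the genes upstream, were picked after their values were seen. Gene positions are from Gencode vM21 on GRCm38, which matched 9900 of 9911 symbols. Python 3.11.15 with pandas 2.3.3, numpy 2.4.6, scipy 1.17.1 and matplotlib 3.10.9 did the rest. The alternatives tried were a pseudocount of 0.1, equal totals, genes above 1 TPM, each replicate left out, and the block left out or added.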

Additional observations from a re-analysis of the deposited data

How the results depend on the processing

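Of 67 counts of spike genes under another setting, 61 stayed within 1.5 times the value reported, and of 844 values of 62 named genes 819 kept their direction and their call, 17 lost the call and 3 gained it. The number of spike genes itself moved most: 673 with a pseudocount of 0.1, 39 with libraries brought to an equal total, and 467 when the mean of both replicates had to pass. The count above asynchronous cells at 120 min, 87, became 47 with an equal total and 38 with no replicate block, and was 53 to 107 with a replicate left out, lowest without replicate 2. The replicate block, left out or added, changed no other count of called spike genes by over 1.5 times. Spike genes at an unadjusted p under 0.05 went from 0 to 5 between the arms at 60 min with the block, and from 3 to 0 for the interaction without it. Both numbers were higher than the 0 and 3 reported when replicate 1 was left out, in fits with 1 library per arm at these times. Over all genes, adding the block between the arms at 60 min took the calls from 23 to 103, and leaving it out between 60 and 120 min without IAA took them from 6179 to 3664. With an equal total, 60 min fell below mitosis for Srsf3 (-0.32), Srsf7 (-0.29), Zfp36l1 (-0.14) and Egr1 (-0.12). Egr1 against mitosis ran from -0.14 without replicate 2 to 1.22 without replicate 1, so its rise rested on replicate 2. An equal total sets all library totals alike by construction; the cause of the shifts was not tested. With a replicate left out, a stage can rest on 1 library, which is then assumed to vary like the others. With 2 replicates at 60 and 120 min and unknown depth, small differences between arms are not resolved.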
